A study of Oncorhynchus mykiss with 9 samples.

Results

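The miR-148 and miR-152 family was followed through 9 small-RNA libraries made from the liver of rainbow trout (Oncorhynchus mykiss), all wild-type. Its members were the entries whose names start with miR-148 or miR-152 in 2 of the 3 deposited tables, which together cover every library. There were 6 of them, 3 named miR-148 and 3 named miR-152, among 1413 entries in all. All 6 averaged at least 1 TPM over the libraries and were tested, among 481 entries that did so. The libraries came from fish held under acute hypoxia for 12 h (n = 3), from fish held under moderate hypoxia for 12 h (n = 3) and from control fish (n = 3). The oxygen levels, the age of the fish and the time at which controls were taken are not stated in the labels. Nothing in the labels tells if the 3 libraries per group were separate fish, so p-values measure the spread between these libraries only. Abundances are in TPM, the authors' scaling of reads to the size of the library.

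A miRNA guides the silencing machinery to messenger RNAs that pair with its seed, the stretch from base 2 to base 8, and miRNAs with one seed share many targets. In mammals, miR-148a, miR-148b and miR-152 form one such family, and miR-148a is among the abundant miRNAs of the liver. Mammalian members repress the maintenance DNA methyltransferase DNMT1, and miR-148a also represses the LDL receptor and the cholesterol exporter ABCA1.

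The deposited sequences show how the 6 entries relate, and capitals mark the seed (bases 2 to 8, counted from 1 at the 5′ end, in the DNA letters of the file).
miR-148-y: tCAGTGCAttacagaactttga
miR-148-z: tCAGTGCAttacagaactttgtt
miR-152-y: tCAGTGCAtaacagaactttga
miR-152-z: tCAGTGCAtaacagaactttgt
miR-148-x: aAGTTCTGtgatacacttcgact
miR-152-x: aAGTTCTGtgatacacttaggct
The y and z entries shared the seed CAGTGCA, which is that of the mammalian 3p arms of the family. The x entries shared the seed AGTTCTG. The file does not explain the letters x, y and z. The first 9 bases of each x entry, AAGTTCTGT, were the reverse complement of bases 11 to 19 of the y entries of both numbers, ACAGAACTT, as the strands of a miRNA hairpin pair. This run thus does not tell which x entry pairs with which y entry.

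The members differed from each other at few bases. Between miR-148-y and miR-152-y the one substitution was T10A (21 of 22 bases the same), outside the seed. Between miR-148-x and miR-152-x the substitutions were C19A and A21G. Within miR-152, the y and z entries differed at the last base, A22T. Within miR-148, the z entry differed from the y entry by A22T and 1 further T at its end.

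A printed sequence did not define the reads of an entry to its last base. The separate deposited table of acute hypoxia with control gives miR-148-y with another last base (A22T) and the other 5 members with the same sequences. The values of miR-148-y in that table nevertheless lay within 0.0225% of those used here in each of the 6 libraries that both hold. Those of the other members lay within 0.502%. Results that set the y entry against the z entry of one number are therefore given as ratios between named entries.

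The family's seed was rare among the other entries. Its 7 letters stood at bases 2 to 8 in 4 of the 1413 entries, which were the y and z members. They stood at bases 1 to 7 in 6 more entries, of which 2 were tested, and at other places in 11. The tested pair was miR-130-y and miR-301-y, members of the mammalian miR-130 family, and capitals mark the shared letters at bases 1 to 7.
miR-130-y: CAGTGCAatattaaaagggca
miR-301-y: CAGTGCAatagtattgtcatagc
A start that is moved by 1 base gives a different seed, so these entries served as a comparison and not as members.

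The reads to which the values were scaled numbered 8443330 to 11841104 under acute hypoxia, 11125147 to 16515713 under moderate hypoxia and 9075426 to 10346819 in controls. A count of 3 reads, the floor of detection used here, stood for 0.182 to 0.355 TPM. Some libraries stood apart from their groups. The summed abundance of 38 entries with names from an imprinted miRNA cluster of placental mammals, which fish lack, was 252, 308 and 3.94 TPM in moderate hypoxia libraries 1, 2 and 3, against 3.76 to 5.41 TPM under acute hypoxia and 3.02 to 4.52 TPM in controls. The hepatocyte miRNA miR-122-x, the most abundant entry, held 307409 TPM in control library 1, against 459053 and 500523 TPM in control libraries 2 and 3. It held 405699 to 460731 TPM under acute hypoxia and 504743 to 525228 TPM under moderate hypoxia. In chi-square comparisons of reads within groups, the 3 moderate hypoxia libraries lay closest together, at 53.7 to 172 per degree of freedom, against 335 to 1387 between acute hypoxia libraries and 698 to 2978 between control libraries. Summed over the compared entries, even the closest pair thus differed by far more than counting error. The median chi-square of an entry in that pair was 1.95, so the sum rested on part of the entries.

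The family was an abundant one in trout liver. Ranked by mean abundance over the 9 libraries, miR-148-y stood 19th of the 1413 entries with 6985 TPM, and miR-152-y stood 21st with 5221 TPM. The z entries had 1848 TPM for miR-152 and 141 TPM for miR-148. The x entries had 900 TPM for miR-148 and 40.9 TPM for miR-152. The family took 1.124%, 1.602% and 1.552% of the reads under acute hypoxia, 1.502%, 1.5% and 1.502% under moderate hypoxia, and 2.73%, 1.178% and 0.933% in controls. Exact 95% binomial intervals, which cover counting error only, were narrow, at 2.72% to 2.74% in control library 1. Control library 1 held the highest share and control library 3 the lowest, so the 3 controls spanned all values of both hypoxia groups.

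**Figure D1:**
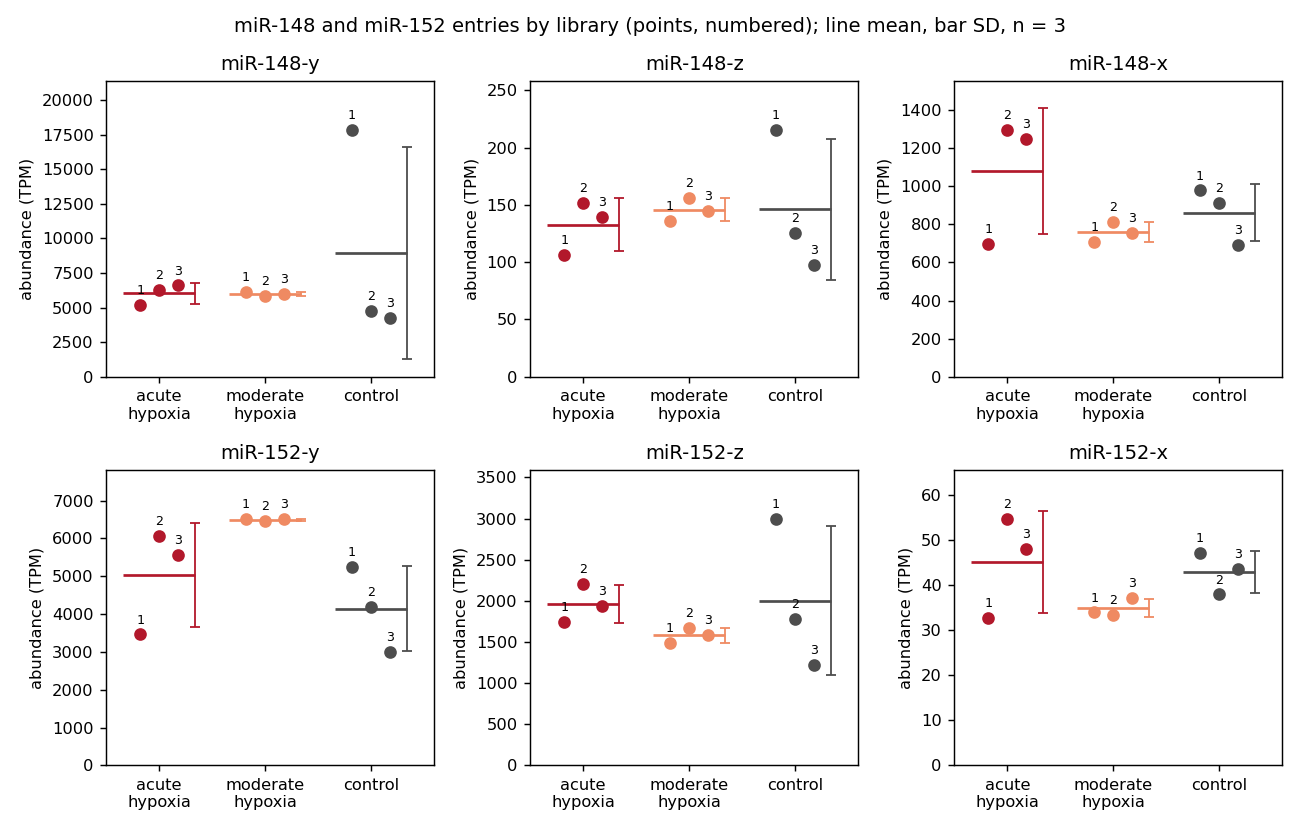
Abundance in TPM of the 6 miR-148 and miR-152 entries in each library (numbered points) under acute hypoxia, under moderate hypoxia and in controls, with the mean (line) and SD (bar) of 3 libraries. For miR-148-y, control library 1 stands at 17812 TPM above 8 libraries between 4273 and 6594 TPM, and for miR-152-y the 3 moderate hypoxia libraries stand between 6459 and 6515 TPM, above every other library.

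Of the seed-bearing strands, miR-148-y was the most abundant. It had 5199, 6258 and 6594 TPM under acute hypoxia, 6136, 5868 and 5989 TPM under moderate hypoxia, and 17812, 4739 and 4273 TPM in controls. Control library 1 was far above all others, and the other 2 controls were below every hypoxia library, so the groups overlapped in both comparisons with control because of 1 library. The group means were 6017 ± 728 TPM under acute hypoxia, 5998 ± 133.98 TPM under moderate hypoxia and 8941 ± 7686 TPM in controls (SD, n = 3 each), and control libraries 2 and 3 averaged 4506 TPM. In the limma fit, the log2 change was -0.25 for acute hypoxia against control (SE 0.43, adjusted p = 0.922) and -0.25 for moderate hypoxia against control (SE 0.43, adjusted p = 0.735). Without control library 1, the changes turned to 0.41 (adjusted p = 0.456) and 0.41 (adjusted p = 0.098). The 95% intervals with all libraries were -1.21 to 0.71 and -1.20 to 0.71.

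In the deposited scaling, the acute and moderate hypoxia means of miR-148-y lay close to each other. The log2 change of acute against moderate hypoxia was -0.0024 (SE 0.43, adjusted p = 0.998), with an interval of -0.96 to 0.95. Under other scalings the change was -0.40 (trimmed mean), -0.41 (median of ratios), -0.23 (reads other than miR-122-x) and 0.32 (quantile), with none past the threshold. The SE in the deposited scaling draws on all 9 libraries, control library 1 among them, and was 0.14 without that library. The interval of -0.96 to 0.95 does not show that the groups were alike. The near copy of miR-148-y, miR-148-z, had 106.7, 151.6 and 139.5 TPM under acute hypoxia, 136.2, 156.2 and 144.6 TPM under moderate hypoxia, and 215, 125 and 97.6 TPM in controls. Control library 1 was again the highest of the 9 and control library 3 the lowest. The log2 change of miR-148-z was -0.074 for acute hypoxia against control (SE 0.28, adjusted p = 0.949) and 0.074 for moderate hypoxia against control (SE 0.28, adjusted p = 0.894). For acute against moderate hypoxia it was -0.15 (SE 0.28, adjusted p = 0.725). That last change was -0.54 (trimmed mean), -0.55 (median of ratios), -0.37 (reads other than miR-122-x) and -0.71 (quantile, adjusted p = 0.055) under other scalings.

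The member with the largest log2 change in any comparison was miR-152-y. It had 3461, 6061 and 5555 TPM under acute hypoxia, 6515, 6459 and 6512 TPM under moderate hypoxia, and 5252, 4180 and 2996 TPM in controls. Each moderate hypoxia library was above each of the other 6, and acute hypoxia and control overlapped. The means were 5026 ± 1378 TPM under acute hypoxia, 6495 ± 31.4 TPM under moderate hypoxia and 4143 ± 1128 TPM in controls (SD, n = 3 each). The order of the means was thus moderate hypoxia, acute hypoxia and control. The coefficient of variation was 0.483% among moderate hypoxia libraries, against 27.4% among acute hypoxia and 27.2% among control libraries. Counting error alone gives an SD of 21.7 TPM for miR-152-y in the moderate hypoxia group.

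In the deposited scaling, neither neighbouring pair in that order differed past the threshold, and neither did the ends. For moderate hypoxia against control, miR-152-y had a log2 change of 0.69 (SE 0.26, 95% interval 0.11 to 1.26), which is 1.61-fold, with an unadjusted p of 0.0232 and an adjusted p of 0.075 in limma. For acute against moderate hypoxia, the change was -0.41 (SE 0.26, adjusted p = 0.236), and for acute hypoxia against control it was 0.28 (SE 0.26, adjusted p = 0.742). Both depended on single libraries: the change of acute against moderate hypoxia was -0.16 without acute hypoxia library 1, and that of acute hypoxia against control was 0.52 without acute hypoxia library 1, 0.12 without acute hypoxia library 2, 0.18 without acute hypoxia library 3, 0.46 without control library 1 and 0.060 without control library 3. For acute against moderate hypoxia, other scalings gave -0.81 (trimmed mean, adjusted p = 0.0232) and -0.82 (median of ratios, adjusted p = 0.0230). Those 2 scalings called 58 entries higher and 69 lower, and 54 and 69, of the 481 tested. Scaling to the reads other than miR-122-x gave -0.64 (adjusted p = 0.0585), and quantile normalization gave -0.24 (adjusted p = 0.451). The authors' deposited table gives miR-152-y a log2 fold change of 0.649 for moderate hypoxia against control with a false discovery rate of 0.0152, the one member under 0.05 in any of their 3 tables, by a test that the file does not name. Theirs for acute against moderate hypoxia was -0.370, with a false discovery rate of 0.121. Of all entries, 151 of 1413 were under 0.05 for moderate hypoxia against control and 0 of 1139 for acute hypoxia against control. For acute against moderate hypoxia, 165 of 1413 were.

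The call on miR-152-y turned on the scaling of the libraries. Over all tested entries, the median log2 change of moderate hypoxia against control was -0.219 in the deposited scaling, and -0.00315 under trimmed-mean scaling, 0.00654 under median-of-ratios scaling and -0.0472 with values scaled to the reads other than miR-122-x. Under those 3 scalings the change of miR-152-y was 0.98 (adjusted p = 0.0114), 0.99 (adjusted p = 0.0125) and 0.93 (adjusted p = 0.0183). Under quantile normalization it was 0.56 (adjusted p = 0.0989). Where miR-152-y was called, many other entries were called too. Of the 481 tested entries, 53 were called higher and 50 lower under trimmed-mean scaling, and 54 and 48 under median-of-ratios scaling. Scaling to the reads other than miR-122-x called 53 and 53, and quantile normalization 40 and 43. Relative to the median of all tested entries, the change of miR-152-y was 0.91 in the deposited scaling and 0.59 to 0.98 under the 4 others. The adjusted p ranged from 0.0114 to 0.412 over all alternatives.

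Libraries also decided it. Without control library 1 the change was 0.88 (adjusted p = 0.0400), and without control library 3 it was 0.47 (adjusted p = 0.199). Leaving out acute hypoxia library 1, which enters the comparison only through the shared estimate of spread, left the change at 0.69 with an adjusted p of 0.0451. Without moderate hypoxia libraries 1 and 2, the change was 0.69 and its adjusted p 0.412, with the lone library assumed to vary like those of the other groups. The values of miR-152-y in those libraries, 6515 and 6459 TPM, lay close to the 6512 TPM in library 3.

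**Figure D2:**
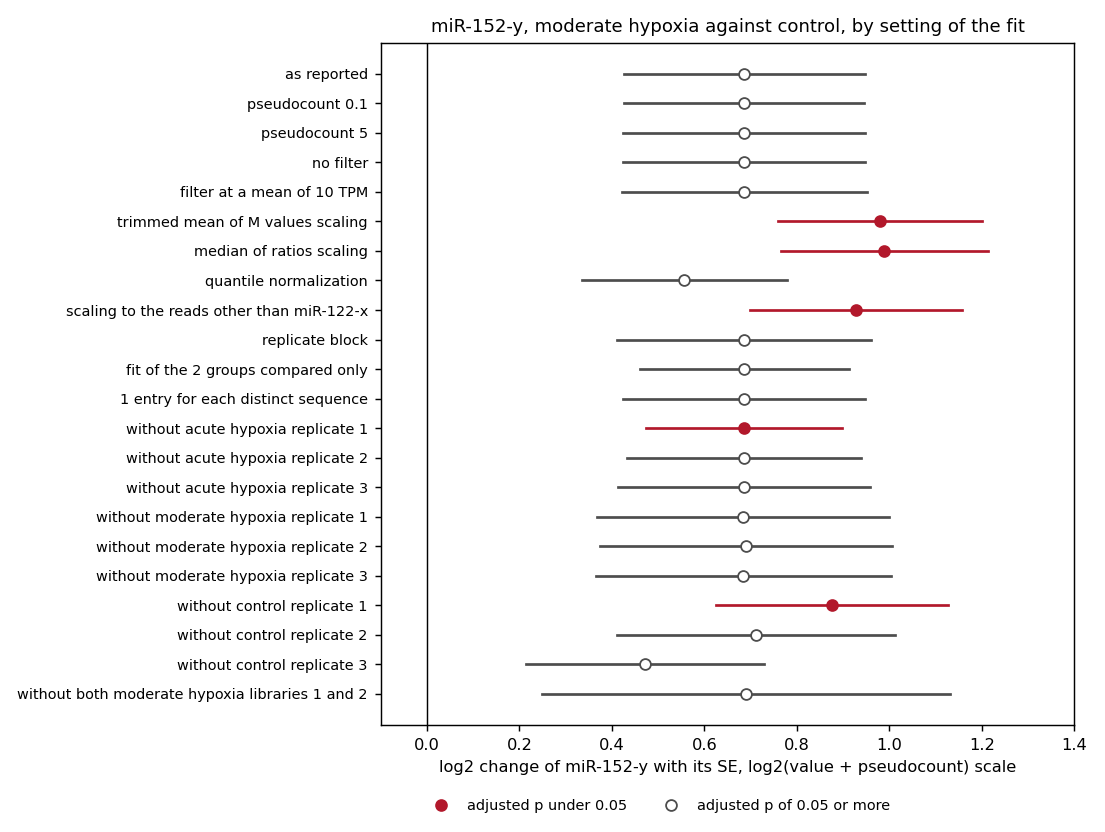
The log2 change of miR-152-y in moderate hypoxia against control (points) with its SE (lines) as reported and under each alternative, on the log2(value + pseudocount) scale. Every estimate is above 0, from 0.47 without control library 3 to 0.99 under median-of-ratios scaling, and filled points mark the 5 alternatives with an adjusted p under 0.05.

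Sums over marker miRNAs of some cell types, though not all, set the moderate hypoxia libraries apart from the others. The 6 red blood cell entries (miR-144, miR-451 and miR-486) summed to 2156 to 3122 TPM under acute hypoxia, 679 to 872 TPM under moderate hypoxia and 2017 to 3512 TPM in controls. The 2 endothelial entries (miR-126) summed to 13401 to 19700 TPM under acute hypoxia, 6719 to 7379 TPM under moderate hypoxia and 11982 to 16161 TPM in controls. The 2 hepatocyte entries (miR-122) summed to 408122 to 462886 TPM under acute hypoxia, 505996 to 526979 TPM under moderate hypoxia and 307584 to 501260 TPM in controls. Red blood cell and endothelial sums were thus below all other libraries under moderate hypoxia, and the hepatocyte sum was above them. The 11 stromal entries (miR-143, miR-145, miR-199 and miR-214) summed to 110191 to 143891 TPM under acute hypoxia, 84960 to 93953 TPM under moderate hypoxia and 86027 to 122272 TPM in controls. The 9 leukocyte entries (miR-142, miR-150, miR-155 and miR-223) summed to 954 to 1523 TPM under acute hypoxia, 787 to 870 TPM under moderate hypoxia and 719 to 1345 TPM in controls, so that acute hypoxia was above moderate hypoxia and controls overlapped both. The 6 pancreatic entries (miR-216, miR-217 and miR-375) summed to 134.6 to 169.8 TPM under acute hypoxia, 173.8 to 189.6 TPM under moderate hypoxia and 108.8 to 141.7 TPM in controls, highest in the moderate hypoxia libraries, as was miR-152-y. The 7 nervous tissue entries (miR-9, miR-124 and miR-219) summed to 15.6 to 16.2 TPM under acute hypoxia, 131, 132.7 and 8.90 TPM in moderate hypoxia libraries 1, 2 and 3, and 15.1 to 19.3 TPM in controls. The 6 striated muscle entries summed to 39.4 to 77.3 TPM over the 9 libraries, and the groups overlapped. Of the red blood cell entries, 1 of 6 had no read in acute hypoxia library 2 and control library 2, and hepatocyte and endothelial entries had reads in every library. The part of these markers in the values of miR-152-y was not tested. In bulk liver, fewer cells of a type and less RNA per cell cannot be told apart.

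The other miR-152 entry with this seed was miR-152-z. It had 1747, 2201 and 1940 TPM under acute hypoxia, 1489, 1669 and 1585 TPM under moderate hypoxia, and 2994, 1783 and 1222 TPM in controls. All acute hypoxia libraries were above all moderate hypoxia ones, and controls spanned both groups. Its log2 change was -0.24 for moderate hypoxia against control (SE 0.29, adjusted p = 0.581), where the estimate for miR-152-y was positive. For acute against moderate hypoxia it was 0.31 (SE 0.29, adjusted p = 0.437), a value that turned to -0.092 and -0.10 under trimmed-mean and median-of-ratios scaling.

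**Figure D3:**
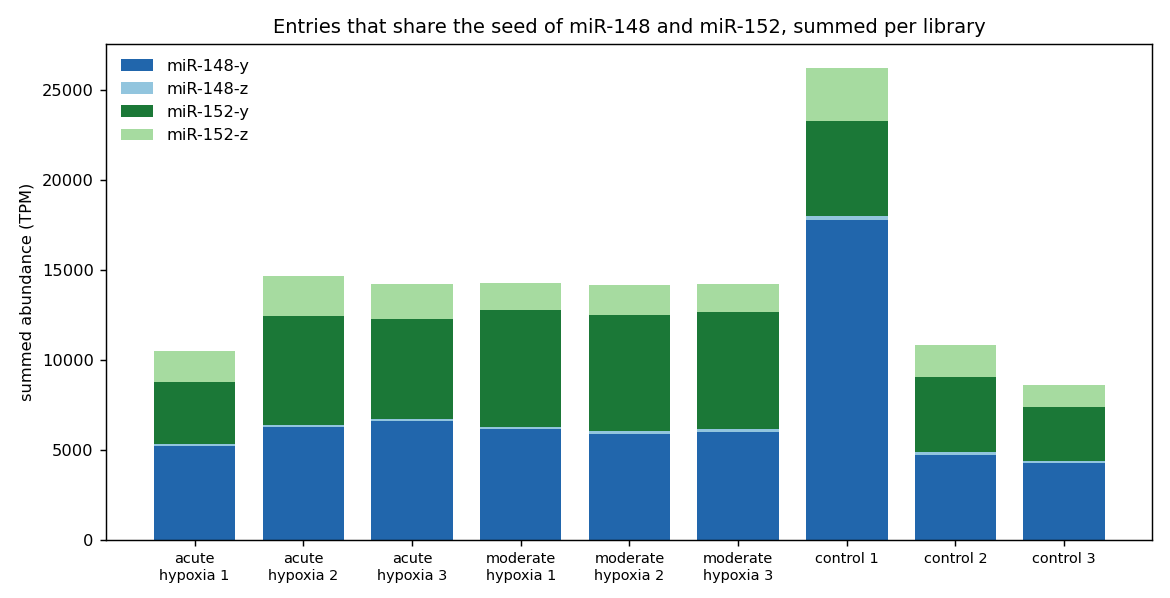
Summed abundance in TPM of the 4 entries that share the seed CAGTGCA, stacked by entry, in each library. Control library 1 reaches 26273 TPM, of which miR-148-y makes up 67.8%, and the 3 moderate hypoxia libraries lie between 14152 and 14275 TPM.

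Together, the 4 seed-bearing entries made up 91.58% to 96.24% of the family's abundance. Their sum was 10514, 14672 and 14228 TPM under acute hypoxia, 14275, 14152 and 14231 TPM under moderate hypoxia, and 26273, 10827 and 8589 TPM in controls. The sum under moderate hypoxia varied by 62.2 TPM (SD). Of its components there, miR-148-y had an SD of 133.98 TPM, miR-152-z one of 90.2 TPM, miR-152-y one of 31.4 TPM and miR-148-z one of 10.1 TPM. The share of miR-148-y in the sum was 42.7% to 49.5% under acute hypoxia, 41.5% to 43.0% under moderate hypoxia, and 67.8%, 43.8% and 49.8% in controls. That of miR-152-y was 32.9% to 41.3% under acute hypoxia, 45.6% to 45.8% under moderate hypoxia and 20% to 38.6% in controls. Of the seed-bearing molecules, miR-152-y thus made up a larger share in each moderate hypoxia library than in any other library.

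The x entries carry the other seed. In acute hypoxia libraries, miR-148-x had 699, 1294 and 1246 TPM. It had 709, 812 and 755 TPM under moderate hypoxia, and 978, 912 and 693 TPM in controls. Acute hypoxia libraries 2 and 3 were the highest of the 9, and acute hypoxia library 1 was lower than all but control library 3. Its log2 change was 0.29 for acute hypoxia against control (SE 0.26, adjusted p = 0.699) and 0.46 for acute against moderate hypoxia (SE 0.26, adjusted p = 0.185). Without acute hypoxia library 1, the change of acute against moderate hypoxia was 0.74 (adjusted p = 0.0282), and without library 2 it was 0.30 (adjusted p = 0.465). Other scalings made it smaller, at 0.059 (trimmed mean), 0.050 (median of ratios), 0.13 (quantile) and 0.23 (reads other than miR-122-x). That of moderate hypoxia against control was -0.17 (SE 0.26, adjusted p = 0.685).

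The rarest member, miR-152-x, had 32.6, 54.6 and 47.9 TPM under acute hypoxia, 33.9, 33.4 and 37.1 TPM under moderate hypoxia, and 47.2, 37.9 and 43.5 TPM in controls. Moderate hypoxia libraries were below each control, the closest values being 37.1 TPM under moderate hypoxia and 37.9 TPM in a control, and acute hypoxia overlapped both groups. The log2 change was -0.29 for moderate hypoxia against control (SE 0.23, adjusted p = 0.398), 0.044 for acute hypoxia against control (SE 0.23, adjusted p = 0.959) and 0.33 for acute against moderate hypoxia (SE 0.23, adjusted p = 0.280). Its sign against control or between hypoxia groups depended on the scaling, in each of the 3 comparisons.

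**Figure D4:**
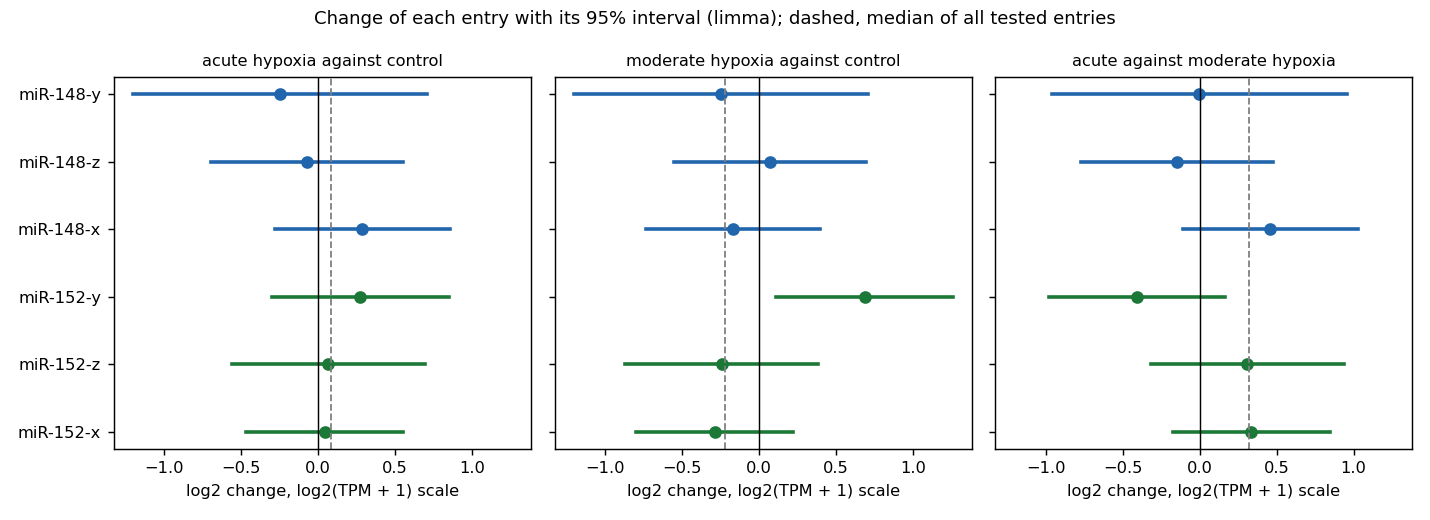
The log2 change of each member with its 95% interval from limma, on the log2(TPM + 1) scale, for acute hypoxia against control, moderate hypoxia against control, and acute hypoxia against moderate hypoxia. Dashed lines show the median change of all 481 tested entries, and the interval of miR-152-y in moderate hypoxia against control, 0.11 to 1.26, is the one that does not reach 0.

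For acute hypoxia against control, 0 of the 6 members passed the threshold, and 0 of the 481 tested entries did, a background of 0%. At an unadjusted p under 0.05 the counts were 0 members and 47 entries (9.77%). The authors' deposited table has 0 of 1139 entries under a false discovery rate of 0.05 in this comparison. The groups overlapped for all 6 members, where 11.2% of tested entries had groups that did not overlap. The median change of the members was 0.054, against 0.084 over all tested entries.

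For moderate hypoxia against control, 0 of the 6 members passed, where 25.6% of the 481 entries did, 38 higher and 85 lower. With trimmed-mean scaling these calls split into 53 higher and 50 lower, and with quantile normalization into 40 and 43. At an unadjusted p under 0.05 there was 1 member, miR-152-y, and 39.9% of all entries. Groups did not overlap for 2 members, miR-152-y above and miR-152-x below the controls, a share below the 43.2% of all tested entries. The median change of the members was -0.21, against -0.22 over all tested entries. In the authors' deposited table, 151 of 1413 entries had a false discovery rate under 0.05.

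For acute against moderate hypoxia, 0 of the 6 members passed, where 30.6% of the 481 entries did, 110 higher and 37 lower. With trimmed-mean scaling the split was 58 higher and 69 lower, and the median change of all tested entries was 0.0167 in place of 0.317. At an unadjusted p under 0.05 there were 0 members and 44.5% of all entries. Groups did not overlap for 2 members, miR-152-y below and miR-152-z above the moderate hypoxia libraries, where 52.8% of tested entries had such groups. The median change of the members was 0.15, against 0.32 over all tested entries. The moderate hypoxia libraries enter both of these comparisons, so the comparisons are not independent.

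A factor that scales a whole library cancels in the ratio between members of that library, whereas quantile normalization, which reshapes the values, can change it. The ratio of miR-148-y to miR-152-y, the most abundant entries of each number, was 1.502, 1.03 and 1.19 under acute hypoxia, 0.942, 0.909 and 0.920 under moderate hypoxia, and 3.39, 1.13 and 1.43 in controls. Under moderate hypoxia miR-152-y was the more abundant of the pair in every library, and in the other 6 libraries miR-148-y was. The log2 ratio differed by -0.93 between moderate hypoxia and control (two-sided exact permutation p = 0.1, the smallest that 3 against 3 allows, adjusted p = 0.25 over 15 tests of ratios). It differed by 0.41 between acute and moderate hypoxia (exact p = 0.1, adjusted p = 0.25) and by -0.53 between acute hypoxia and control (exact p = 0.5, adjusted p = 0.692). Without control library 1, the difference from control was -0.053 for acute hypoxia and -0.46 for moderate hypoxia. Under quantile normalization the 3 differences were -0.99 (moderate hypoxia against control), 0.56 (acute against moderate hypoxia) and -0.42 (acute hypoxia against control).

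The ratio of the presumed hairpin arms was taken for each number. For miR-152, y over x was 106.2, 111 and 116 under acute hypoxia, 192, 193 and 175 under moderate hypoxia, and 111, 110 and 68.8 in controls. The moderate hypoxia libraries were above all others, at 1.97 times the control level (log2 difference 0.98, exact permutation p = 0.1, adjusted p = 0.25). Acute hypoxia lay 0.74 below moderate hypoxia on the log2 scale (exact p = 0.1, adjusted p = 0.25) and 0.23 above control (exact p = 0.6, adjusted p = 0.692). Quantile normalization left a difference of 0.39 between moderate hypoxia and control and of 0.036 between acute and moderate hypoxia, so the separation of the hypoxia groups in this ratio was not seen there. For miR-148, y over x was 7.44, 4.84 and 5.29 under acute hypoxia, 8.65, 7.22 and 7.93 under moderate hypoxia, and 18.2, 5.20 and 6.16 in controls. For miR-148 the groups overlapped in each of the 3 comparisons, with exact permutation p of 0.6, 1 and 0.2 (acute hypoxia against control, moderate hypoxia against control, acute against moderate hypoxia), and control library 1 again had the highest ratio.

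The last-base neighbours of miR-152 were set against each other after their values had been seen. The ratio of miR-152-y to miR-152-z was 1.98, 2.75 and 2.86 under acute hypoxia, 4.38, 3.87 and 4.11 under moderate hypoxia, and 1.75, 2.34 and 2.45 in controls. Each moderate hypoxia library was above each of the other 6, at 1.90 times the control level (log2 difference 0.93, exact permutation p = 0.1, adjusted p = 0.25) and 0.72 above acute hypoxia on the log2 scale (exact p = 0.1, adjusted p = 0.25). Leaving out 1 library at a time kept the difference from control between 0.78 and 1.02, and quantile normalization gave 0.77 against control and -0.61 between acute and moderate hypoxia. In the deposited scaling, the ratio of miR-148-y to miR-148-z did not separate the groups, at 48.7, 41.3 and 47.3 under acute hypoxia, 45.1, 37.6 and 41.4 under moderate hypoxia, and 82.8, 37.8 and 43.8 in controls. Its log2 difference was -0.32 between moderate hypoxia and control and 0.15 between acute and moderate hypoxia. Under quantile normalization these differences were -0.99 and 1.03, so the contrast with the miR-152 pair depended on the scaling.

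**Figure D5:**
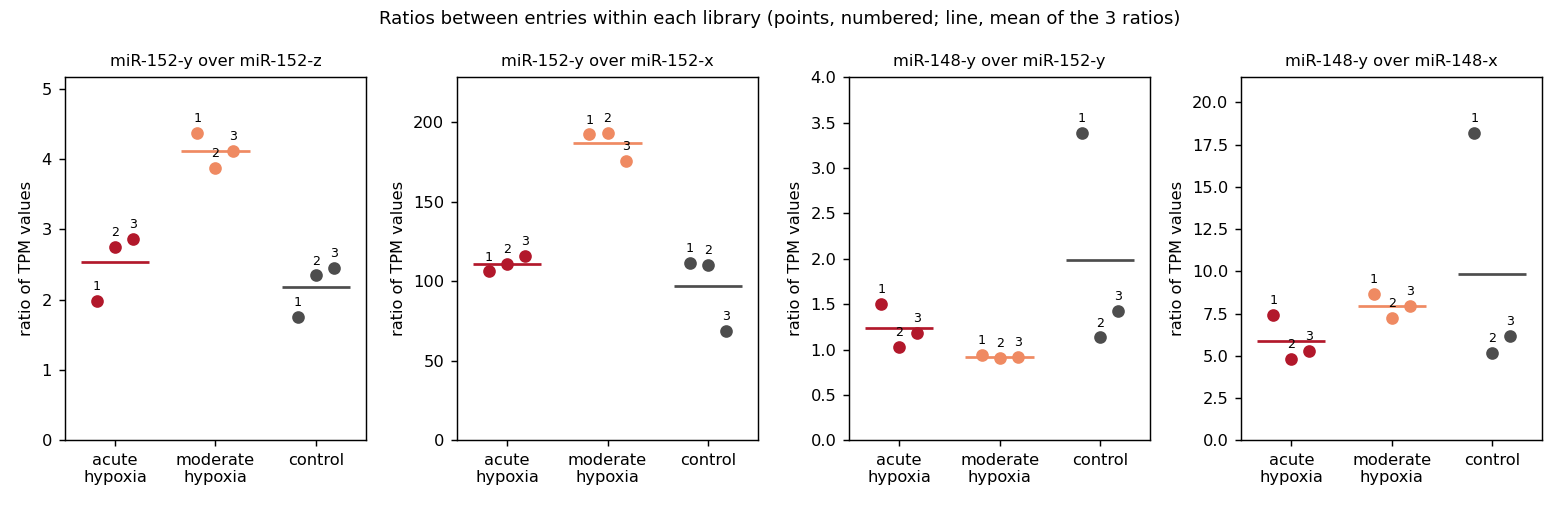
Ratios of TPM values between members in each library (numbered points, line for the mean of 3 ratios), for miR-152-y over miR-152-z, miR-152-y over miR-152-x, miR-148-y over miR-152-y and miR-148-y over miR-148-x. Moderate hypoxia libraries stand above all others in the first and second panels (deposited scaling), at 3.87 to 4.38 and 175 to 193, and below all others in the third, at 0.909 to 0.942.

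The entries with the seed letters moved by 1 base, and others matched by miRNA number, were compared next. In acute hypoxia libraries, miR-130-y had 241, 364 and 291 TPM. It had 113, 102 and 107 TPM under moderate hypoxia, and 256, 258 and 197 TPM in controls. Moderate hypoxia was below both other groups in every library, by a log2 change of -1.13 against control (SE 0.22, adjusted p = 0.00535), and acute hypoxia was 1.45 above moderate hypoxia (SE 0.22, adjusted p = 0.00104). In the same comparison, miR-301-y rose by 1.403 on the log2 scale under acute hypoxia (SE 0.33, adjusted p = 0.0114), with 54.8, 119 and 68.9 TPM under acute and 23.6, 34.7 and 27.7 TPM under moderate hypoxia. Under quantile normalization the fall of miR-130-y against control and the rise of miR-301-y did not pass, and 3 other scalings kept each of those calls. All 4 kept the call on miR-130-y in acute against moderate hypoxia. Of the 6 tested entries named miR-130, miR-301 or miR-454, 0 passed in acute hypoxia against control, 1 was lower under moderate hypoxia than in controls, and 3 were higher under acute than under moderate hypoxia, where 25.6% and 30.6% of all tested entries were called. Among these 6, miR-130-y and miR-301-y alone hold the letters at bases 1 to 7. The third that was higher, miR-301-x (1.13, SE 0.33, adjusted p = 0.0276), passed under 0 of the 4 other scalings. The median change of these 6 was -0.55 in moderate hypoxia against control and 0.93 between acute and moderate hypoxia, against -0.22 and 0.32 over all tested entries.

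Other miRNAs that mammals use against DNA methyltransferases were compared, since DNMT1 is a known target of the family. Of 10 tested entries (miR-29, miR-101, miR-126, miR-143, miR-185 and miR-342), 0 passed for acute hypoxia against control. Under moderate hypoxia, 1 was higher and 2 were lower than in controls, a share near the 25.6% of all tested entries. The endothelial miR-126-y, with 12589, 18441 and 15433 TPM under acute hypoxia, 6195, 6906 and 6593 TPM under moderate hypoxia and 15449, 12367 and 11407 TPM in controls, fell by 0.98 on the log2 scale (SE 0.20, adjusted p = 0.00676). The smooth-muscle and stromal miR-143-x was higher by 0.91 (SE 0.27, adjusted p = 0.0321). That call was kept by 3 of 9 fits without 1 library and by 4 of the 4 other scalings. The second that was lower, miR-29-x (-0.75, SE 0.22, adjusted p = 0.0319), passed under 0 of the 4 other scalings. It passed in 6 of 9 fits without 1 library. The more abundant miR-143-y (mean 14290 TPM, against 320.6 TPM for miR-143-x) was not called against control. It had 12012, 10440 and 11334 TPM under moderate hypoxia and 12844, 16533 and 12236 TPM in controls. Acute hypoxia was above moderate hypoxia by 0.64 for miR-143-y (SE 0.20, adjusted p = 0.0312). That call was kept by 0 of the 4 other scalings and by 4 of 9 fits without 1 library. For acute against moderate hypoxia, 5 were higher and 0 lower, where 30.6% of all tested entries were called, and under the 4 other scalings 2 or 3 were higher. The median change of the list was -0.40 in moderate hypoxia against control and 0.65 between acute and moderate hypoxia, against -0.22 and 0.32 over all tested entries.

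The miRNAs that act on cholesterol uptake and efflux in mammals were compared for the same reason. Of 19 tested entries (miR-26, miR-27, miR-33, miR-106, miR-122, miR-128, miR-144, miR-185 and miR-223), 0 passed for acute hypoxia against control. Under moderate hypoxia, 8 were lower than in controls and 0 higher, where 25.6% of all tested entries were called (85 of 481 lower), and under each of the 4 other scalings 3 were lower. The red blood cell miRNA miR-144-y, also a repressor of ABCA1 in mammals, had 1198, 1619 and 936 TPM under acute hypoxia, 258, 158 and 222 TPM under moderate hypoxia, and 1700, 1091 and 530 TPM in controls. It fell by 2.25 on the log2 scale in moderate hypoxia against control (SE 0.39, adjusted p = 0.00351). In the same comparison miR-27-y, a repressor of ABCA1 and the LDL receptor in mammals, fell by 0.89 (SE 0.20, adjusted p = 0.0112). For acute against moderate hypoxia, 7 were higher and 0 lower, where 30.6% of all tested entries were called (110 of 481 higher), and under the 4 other scalings 3 to 5 were higher and 0 to 2 lower. Sums of red blood cell and endothelial markers, given above with miR-152-y, moved the same way as the entries of these lists that fell. The called miR-126-y and miR-144-y are themselves part of those sums, so this likeness is not a separate observation. The part of the markers in the lists was not tested. The median change of the cholesterol list was -0.50 in moderate hypoxia against control and 0.56 between acute and moderate hypoxia, where all tested entries had -0.22 and 0.32. Without moderate hypoxia libraries 1 and 2, the group rests on its lone library 3, so calls on these 3 lists in that fit cannot be read.

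Entries whose abundance varied most like the leading members were sought over the 9 libraries, by Pearson's r of log2(TPM + 1). For miR-152-y the closest tested entry was miR-22-z (r = 0.955), followed by a predicted miRNA of sequence tacattgtagtataactgtagt (r = 0.921), miR-455-x (r = 0.896), miR-1788-y (r = 0.889) and miR-125-z (r = 0.849). Without control library 1 these values were 0.964, 0.956, 0.922, 0.893 and 0.851. For miR-148-y the closest was miR-218-x (r = 0.914, and 0.460 without control library 1), so its list rested on that library. Of the 5 entries most like it, the exception was miR-148-z, with r = 0.877 over 9 libraries and 0.824 without control library 1. The libraries share their groups and their scaling, so these values describe the data and carry no test.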

How the data were processed

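Small RNA was sequenced from liver of rainbow trout in 3 libraries per group; per the labels' protocols, total RNA was extracted with Trizol and libraries followed standard Illumina protocols. The sources used here give no aligner, genome build or counting step, and no genome positions of the entries. The deposited file stacks 3 tables, 1 per pair of groups. Per the file headers its values are TPM, a signal scaled to library size by the authors. The deposited log2 fold changes are those of the group means, and the test behind the deposited p-values and q-values is not named. Both tables that hold moderate hypoxia list the same 1413 entries and were joined by name. The separate table of acute hypoxia with control (1139 entries) served as an alternative.

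Low values (under 200 reads) were whole multiples of 1 step per library, within 0.1 read in 100% of them, which gave the depth of each library. A value of 0.01 TPM stood for no read. Sums per library were 1004251 to 1005614 TPM, more than per-million scaling of separate reads gives, so entries may share reads. Counting intervals and floors (3 reads) cover counting error only, since such reads, lacking molecular identifiers, need not be independent molecules.

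Values were analysed as log2(TPM + 1) for the 481 entries that averaged 1 TPM or more. A limma-trend fit (R 4.3.3, limma 3.58.1) of the 3 group means used all 9 libraries, with Benjamini-Hochberg adjustment within each comparison at 0.05. A fold change on this scale understates the change of low entries. The code was tested on simulated data with 200 changed entries. Ratios were compared by two-sided exact permutation tests of log2((TPM + 1)/(TPM + 1)) (scipy 1.17.1, Python 3.11.15), adjusted over all 15. Alternatives were pseudocounts of 0.1 and 5, no filter and a minimum mean of 10 TPM, 4 other scalings (trimmed mean of M values, median of ratios, quantile normalization, and reads other than miR-122-x), a block, fits of 2 groups, 1 entry per sequence, and fits without libraries.

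Named besides the members were entries sharing their seed letters and the 5 entries most like the leading member of each number. From each list and comparison, up to 4 entries past the threshold were taken by abundance, and not all of them are described. The members, lists and tests were chosen with earlier results of these data known. Lists follow mammalian literature and were matched by miRNA number.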

Additional observations from a re-analysis of the deposited data

How the results depend on the processing

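Of 383 alternatives to the 18 member changes, 33 turned the direction, 8 moved a change past the threshold and 0 lost a call, and the rest kept both. No count test on recovered reads was run. For moderate hypoxia against control, the number of members called was 1 under trimmed-mean, median-of-ratios and miR-122-free scaling, and 0 to 1 without 1 library. Of all 481 tested entries, those scalings called 53 higher and 50 lower, 54 and 48, and 53 and 53, in that order. For acute against moderate hypoxia the number of members called was 1 under trimmed-mean and median-of-ratios scaling (miR-152-y, -0.81 and -0.82), and 0 to 1 without 1 library. Those scalings called 58 higher and 69 lower, and 54 and 69, of all 481 entries in this comparison. Deviations from the group means correlated at -0.206 to 0.264 between same-numbered libraries and at -0.336 to 0.252 between the others. No pairing by number was thus seen, which does not exclude it. With a replicate block, 0 members were called in each comparison, and miR-152-y had an adjusted p of 0.0969 in limma for moderate hypoxia against control. That fit called 117 entries for moderate hypoxia against control and 140 for acute against moderate hypoxia. Calls over all entries in these comparisons were, with no filter, 17 higher and 42 lower, and 82 higher and 24 lower. They were 10 and 28 without moderate hypoxia libraries 1 and 2, 59 to 129 and 73 to 187 without 1 library, and for moderate hypoxia against control 82 in the fit of 2 groups.

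Directions turned in 12 of the 18 member changes, which were at most 0.33 in size in the deposited scaling with all libraries. None of the turned values passed the threshold, and the cause was not tested. Under trimmed-mean scaling they were, for moderate hypoxia against control, miR-148-x 0.12, miR-148-y 0.046 and miR-152-z 0.050; for acute hypoxia against control, miR-152-x -0.059 and miR-152-z -0.041; and for acute against moderate hypoxia, miR-152-x -0.056 and miR-152-z -0.092. Under median-of-ratios scaling the values of the same members in the same order were 0.13, 0.056 and 0.060 (with miR-152-x at 0.0065), then -0.059 and -0.040, then -0.065 and -0.10. The miR-122-free scaling gave 0.072 for miR-148-x (moderate hypoxia against control). Quantile normalization gave miR-152-x -0.11 (acute hypoxia against control), 0.16 (moderate hypoxia against control) and -0.28 (between acute and moderate hypoxia), where miR-148-y was at 0.32. Without 1 library, changes for acute hypoxia against control ranged from -0.62 to 0.41 (miR-148-y), -0.32 to 0.24 (miR-148-z), -0.11 to 0.26 (miR-152-x) and -0.24 to 0.40 (miR-152-z). For moderate hypoxia against control they ranged from -0.62 to 0.41 (miR-148-y), -0.17 to 0.39 (miR-148-z), -0.55 to 0.097 (miR-152-z) and 0.47 to 0.88 (miR-152-y), and for acute against moderate hypoxia from -0.072 to 0.099 (miR-148-y) and -0.57 to -0.16 (miR-152-y). The log2 ratio of miR-148-y to miR-148-x ranged from -0.88 to 0.024 (acute hypoxia against control) and -0.42 to 0.48 (moderate hypoxia against control), and that of miR-148-y to miR-148-z from -0.40 to 0.17 and -0.55 to 0.022. Quantile normalization, an alternative chosen after seeing the data for the ratios, turned miR-148-y to miR-148-x (0.19) and miR-152-y to miR-152-x (0.036) between acute and moderate hypoxia, and miR-148-y to miR-148-z (0.041) in acute hypoxia against control. No other ratio turned. Depth limits none of the members, whose lowest value was 32.6 TPM against a floor of at most 0.355 TPM.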

Other observations

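Among all 481 tested entries, 4 pairs differed in the last base alone. Besides miR-152-y and miR-152-z these were miR-215-x and miR-215-z (A23T), miR-218-x and miR-218-z (T23A), and miR-22-y and miR-22-z (T22C). The ratio of miR-215-x to miR-215-z was 4.68, 2.36 and 3.78 under acute hypoxia, 2.03, 1.72 and 1.85 under moderate hypoxia, and 4.78, 2.69 and 4.10 in controls. It was thus lowest in the moderate hypoxia libraries, where the ratio of miR-152-y to miR-152-z was highest, and in both pairs the x or y entry ends in A and the z entry in T. The ratio of miR-22-y to miR-22-z was 163, 169 and 157 under acute hypoxia, 198, 164 and 186 under moderate hypoxia, and 84.5, 158 and 162 in controls. Moderate hypoxia libraries were above each control, the closest values being 164 and 162, and acute hypoxia overlapped both groups. These pairs were found after the values had been seen and were not tested.

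For 5 of the 6 members, the value in moderate hypoxia library 3 lay between those in libraries 1 and 2 of that group, and the exception was miR-152-x. This was not counted over all tested entries, so it cannot be read as particular to the members. The labels do not say how the libraries relate.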
